A study of Sus scrofa with 6 samples.

Results

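The smooth muscle contractile genes ACTA2 (ENSSSCG00000010447), ACTG2 (ENSSSCG00000008294) and CNN1 (ENSSSCG00000013614) were followed in hypothalamus, pituitary and ovary of estrous and anestrous sows. They were found by gene name in the deposited tables. Of 4 genes listed (ACTA2, ACTG2, CNN1 and MYH11), 3 had a row, 1 row each, out of 19465 gene rows per table. MYH11, the smooth muscle myosin heavy chain gene, had no row under its name and was not analysed here. The animals were landrace x large white primiparous sows, that is, sows that had borne a single litter. In each tissue an estrous library (sows in normal estrus) was compared with an anestrous library, from sows whose anestrus the labels attribute to inactive ovaries. The labels give 3 sows per state without saying whether their RNA was pooled, and do not give age or treatment. The tables hold 6 libraries, 1 per tissue and state. No difference within a tissue therefore has a replicate check or a test between states, and the p-values quoted from the authors' deposited table compare a pair of libraries. The terms "higher" and "lower" describe the anestrous library relative to the estrous library of that tissue.

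Smooth muscle shortens when actin filaments slide along myosin filaments, after calcium and calmodulin activate myosin light chain kinase. ACTA2 encodes alpha smooth muscle actin, which prevails in vascular smooth muscle and is also made by myofibroblasts and some pericytes. ACTG2 encodes gamma smooth muscle actin, known mainly from smooth muscle of the gut, bladder and uterus. CNN1 encodes calponin, an actin-binding protein of differentiated smooth muscle that restrains the myosin ATPase. In the ovary, smooth muscle lies in vessel walls and in the stroma, and contractile cells ring the follicle in the theca externa. In hypothalamus and pituitary it is known from vessels.

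Library totals lay between 15314325 and 17384789 reads assigned to genes. The tissues carried their own defining genes. Neuron markers summed to 5111 and 6645 RPM (reads per 1000000 reads of the library) in the hypothalamus libraries, estrous and anestrous, pituitary hormone cell markers to 248935 and 259707 in the pituitary, and granulosa cell markers to 12797 and 2417 in the ovary. Genes defining one tissue also had reads in the others. PRL, the prolactin gene, had 842 and 873 reads in the ovary libraries, or 0.0394% and 0.0325% of its reads in the pituitary library of the same state, a comparison chosen after the values were seen.

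All 3 genes had most reads in the ovary. ACTA2 stood at 3035 RPM in the estrous ovary and 1908 in the anestrous ovary, against 26.8 and 48.5 in the hypothalamus, and 21.2 and 36.8 in pituitary libraries. By number of reads it ranked 23 among the genes of the estrous ovary library and 40 among those of the anestrous one. ACTG2 stood at 757 and 121 RPM in the ovary, at 0.784 and 0.885 in the hypothalamus and at 0.0588 and 0.173 in the pituitary, where the last values are 1 read and 3 reads. CNN1 stood at 356 and 226 RPM in the ovary, 18.0 and 18.9 in the hypothalamus and 1.59 and 3.62 in the pituitary. The ovary libraries were thus above the others for each gene, and hypothalamus and pituitary were close for ACTA2 but apart for CNN1. The tables were normalised separately, so these levels were set across them as RPM of each library, with no test. In bulk tissue, fewer cells of a type and less RNA per cell cannot be told apart.

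**Figure D1:**
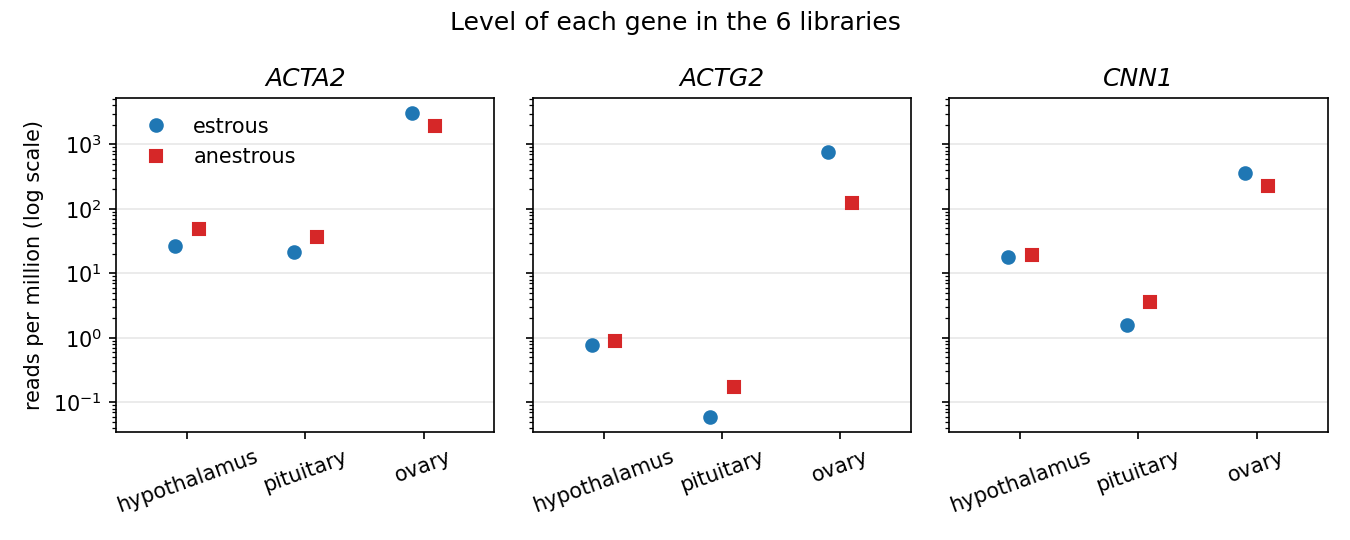
RPM (log axis) of ACTA2, ACTG2 and CNN1 in the 6 libraries, 1 point per library, circles for estrous and squares for anestrous. Each gene is highest in the ovary, where the estrous point lies above the anestrous point, while in hypothalamus and pituitary the anestrous point is the upper one.

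In the estrous libraries ACTA2 was 113-fold higher in ovary than in hypothalamus (95% counting interval 103 to 125) and 143-fold higher than in pituitary (129 to 160). In the anestrous libraries the same ratios were 39.3 (36.6 to 42.3) and 51.8 (47.9 to 56.1). CNN1 was 19.7-fold higher in ovary than in hypothalamus in estrus (17.5 to 22.3) and 224-fold higher than in pituitary (154 to 340). CNN1 therefore separated hypothalamus from pituitary, with an 11.4-fold ratio in estrus (7.64 to 17.5) and 5.22-fold in anestrus (3.96 to 6.96). For ACTA2 the hypothalamus to pituitary ratios were 1.27 (1.10 to 1.46) and 1.32 (1.18 to 1.47), but 1.06 and 1.08 when the 10 genes with most reads, which held 33.3% and 35.9% of the pituitary reads, were left out of the totals. Down the order of levels, neighbours not separated by counting error were the hypothalamus libraries for ACTG2 and for CNN1, and the pituitary libraries for ACTG2. All intervals are exact, compare 1 library with 1 and take in counting error alone, so differences between sows and between libraries are left out. They may also understate counting error, because reads were not tied to molecules by identifiers and PCR copies are not independent.

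The ovary held the most divergent member. ACTG2 gave 11722 reads in the estrous ovary and 1995 in the anestrous ovary, or 11260 and 2077 as normalised read counts. The anestrous value was 5.42-fold lower (5.17 to 5.69), a log2 fold of -2.44 on a pseudocount of 1, and 0.706% of the ovary genes over the floor had a lower one. ACTA2 gave 47011 and 31356 reads, 1.38-fold lower in anestrus (1.36 to 1.40). CNN1 gave 5506 and 3714 reads, 1.37-fold lower (1.31 to 1.43). ACTA2 and CNN1 were thus lower by nearly the same ratio, and ACTG2 by several times more. By a rule of size used throughout, a mean normalised count of at least 50 and a log2 fold of at least 1 in size, all 3 were over the floor in the ovary, and ACTG2 was the 1 counted as lower. Of all 10902 ovary genes over that floor, 7.95% (867) were lower and 12.3% (1343) higher by the rule, a split that turned to 1203 lower and 1023 higher with the library totals made equal. The median log2 fold of the 3 genes was -0.47, beside 0.02 over all genes over the floor. In the authors' deposited table the adjusted p for this pair of libraries was 0.399 for ACTG2 and 1 for ACTA2 and CNN1.

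In hypothalamus and pituitary ACTA2 was higher in anestrus. In the hypothalamus it gave 411 and 767 reads, a 1.93-fold higher normalised count (1.71 to 2.18; log2 fold 0.94). In the pituitary it gave 360 and 640 reads, 1.88-fold higher (1.65 to 2.15; log2 fold 0.91). Both values lie just under the 2-fold rule, and 98.5% of the genes over the floor had a lower log2 fold in each tissue. CNN1 gave 276 and 299 reads in the hypothalamus, a ratio of 1.12 whose interval (0.946 to 1.32) includes equal levels. In the pituitary CNN1 gave 27 and 63 reads, 2.47-fold higher (1.55 to 4.04), with a mean normalised count of 45.5 that left it just below the floor. ACTG2 had 12 and 14 reads in the hypothalamus (ratio 1.20, 0.517 to 2.85) and 1 and 3 in the pituitary (ratio 3.18, 0.255 to 167), too few to show a difference. The floor was passed by 2 of the 3 genes in the hypothalamus and 1 in the pituitary, and none of these was counted as 2-fold higher or lower, against a background of 1.29% higher and 1.04% lower in the hypothalamus and 1.2% higher and 1.9% lower in the pituitary. With equal totals the hypothalamus split turned from 147 higher and 119 lower to 111 and 163, and that of the pituitary went from 129 and 204 to 97 and 270. The median log2 fold of the 3 genes was 0.25 in the hypothalamus and 1.05 in the pituitary, both of them the value of ACTG2, from 12 and 14 and from 1 and 3 reads and below the floor, beside a median of 0.01 over all genes over the floor in each. The authors' deposited table gave ACTA2 a p of 0.00231 in the hypothalamus and 0.00961 in the pituitary, with adjusted p of 0.204 and 0.513.

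**Figure D2:**
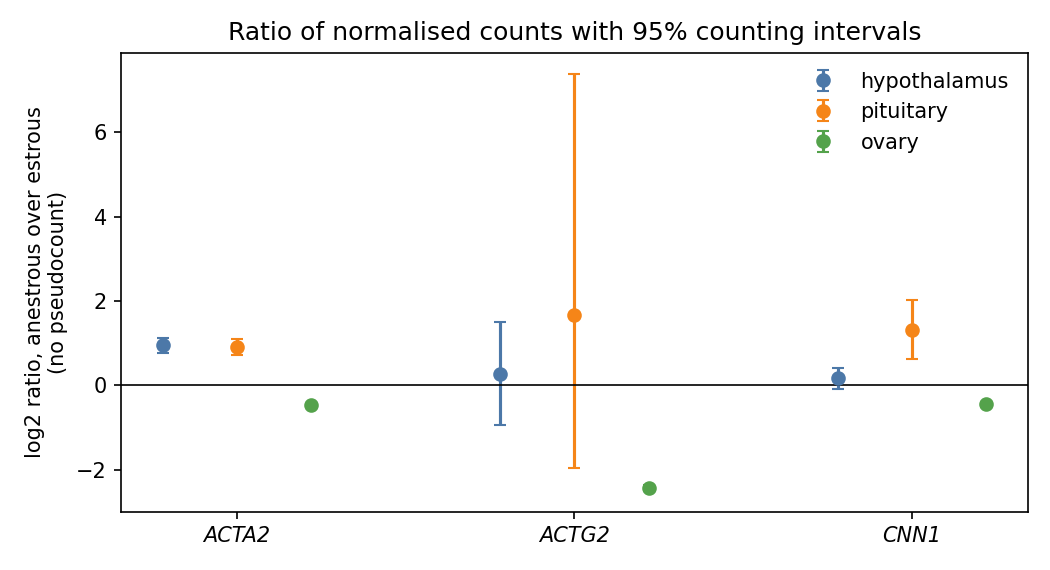
Log2 ratio of the anestrous to the estrous normalised count of each gene in hypothalamus, pituitary and ovary, without a pseudocount. Bars are 95% counting intervals from the reads and are narrower than the points in the ovary, where all 3 genes lie below 0, with ACTG2 lowest.

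The reads of ACTG2 and CNN1 were also set against those of ACTA2 within each library, a measure that no scaling of libraries can move. For every 100 ACTA2 reads the estrous ovary held 24.9 ACTG2 reads (24.4 to 25.4) and the anestrous ovary 6.36 (6.08 to 6.66). CNN1 stood at 11.7 (11.4 to 12.0) and 11.8 (11.4 to 12.3) per 100 ACTA2 reads in the same libraries. In the ovary, then, calponin and alpha actin kept their proportion within counting error and gamma actin did not. In the hypothalamus CNN1 was at 67.2 per 100 ACTA2 reads in estrus (57.4 to 78.4) and 39.0 in anestrus (34.0 to 44.6), with ACTA2 higher in anestrus and CNN1 at a ratio whose interval includes equal levels. In the pituitary it was at 7.50 (4.87 to 11.1) and 9.84 (7.47 to 12.8). The 3 genes together took 0.415% of the estrous ovary library and 0.226% of the anestrous one, and 0.00228% to 0.00683% of the other libraries.

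**Figure D3:**
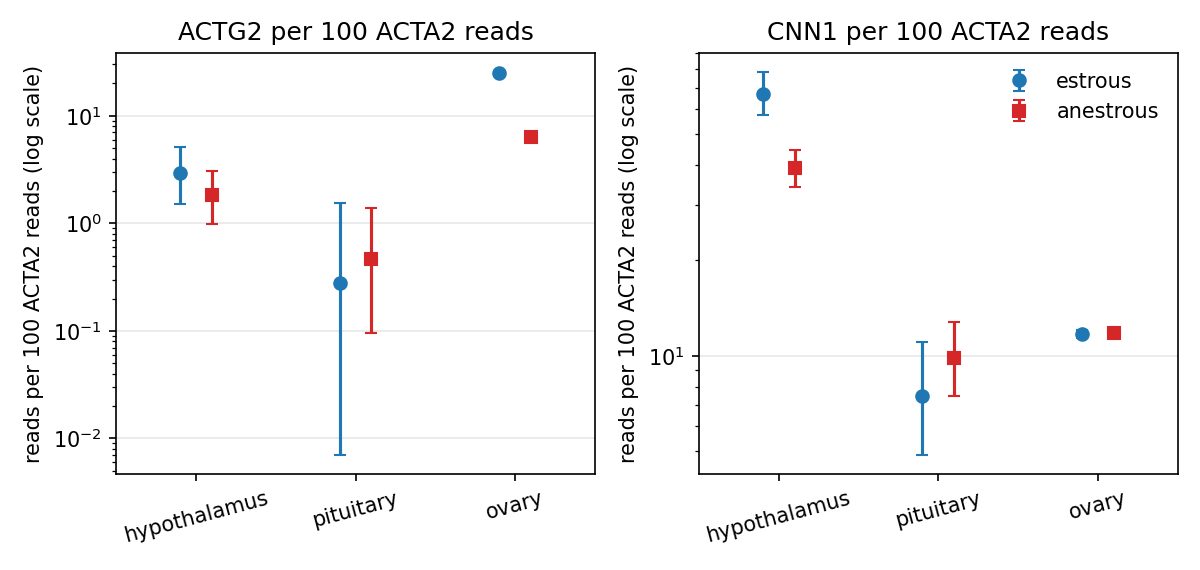
Reads of ACTG2 (left) and CNN1 (right) per 100 ACTA2 reads in each library, on log axes, with 95% counting intervals. In the ovary the ACTG2 value is 24.9 in estrus and 6.36 in anestrus, while the CNN1 values, 11.7 and 11.8, coincide.

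Actin genes are near-identical in their coding sequence, so reads may be divided between them, and the counting method is not given in the sources used here. The cytoplasmic actins ACTB and ACTG1 went the other way in the ovary, with 49153 and 89466 reads for ACTB (1.97-fold higher, 1.95 to 1.99) and 75038 and 121815 for ACTG1 (1.76-fold higher, 1.74 to 1.78). In the estrous pituitary, ACTB had 16049 reads and ACTG1 50624 beside the 1 read of ACTG2 and 360 of ACTA2. The skeletal muscle actin ACTA1 had 66 and 95 reads in the hypothalamus. It had 156 and 154 in the pituitary but 21 and 1 in the ovary, and the cardiac actin ACTC1 at most 41 reads in any library. MYH9, a nonmuscle myosin heavy chain, was 2.38-fold higher in the anestrous ovary (11635 and 25589 reads), and MYH10, another, had 719 and 668 reads there (ratio 1.01, 0.905 to 1.12). Of the 25 other actin, myosin and striated muscle genes listed, 6 were over the floor in the ovary. At least 2-fold, 1 was higher (MYH9) and 1 lower, the embryonic skeletal myosin gene MYH3 (log2 fold -1.11). The share over all ovary genes was 12.3% higher and 7.95% lower.

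Most other genes of the contractile apparatus were within 2-fold in the ovary. Of 25 genes listed, 21 were over the floor, 3 at least 2-fold lower, 2 at least 2-fold higher and 16 within 2-fold (median log2 fold -0.08), both counts within 2 genes of what the ovary background of 7.95% and 12.3% would give. DES, which encodes the muscle intermediate filament protein desmin, had 7922 and 1451 reads, 5.04-fold lower in anestrus (4.76 to 5.33). PGM5, which encodes a protein of muscle cell adhesions, had 1976 and 482 reads, 3.78-fold lower in anestrus (3.42 to 4.19). PDLIM3, for a LIM protein that binds alpha-actinin, had 623 and 210 reads, 2.74-fold lower (2.34 to 3.22). The ratio of DES was the nearest of the 3 to that of ACTG2, and its interval overlapped that of ACTG2, while those of PGM5 and PDLIM3 did not.

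A further set of smooth muscle genes differed by at most 1.21-fold between the ovary libraries. TAGLN, which encodes the actin-binding protein transgelin, gave 35028 and 37718 reads (ratio 1.17, 1.15 to 1.18). MYL9, the regulatory light chain of smooth muscle myosin, gave 12989 and 14462 (ratio 1.21, 1.18 to 1.24), and CALD1 (caldesmon) 17125 and 18468 (ratio 1.17, 1.14 to 1.19). With the library totals made equal, a scaling that moved all ovary log2 folds by -0.20, the log2 folds of TAGLN, MYL9 and CALD1 were 0.02, 0.07 and 0.02. The tropomyosin gene TPM2 was 1.60-fold lower (1.56 to 1.65). The members at least 2-fold higher were ITGA8, an integrin subunit (log2 fold 1.14), and ACTN1, alpha-actinin (1.05), at 0.94 and 0.85 with equal totals.

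Of the 24 genes of contraction signalling, 19 were over the floor in the ovary (median log2 fold -0.27). Of these 19, 4 were at least 2-fold lower and none 2-fold higher. Over all ovary genes over the floor, 7.95% were lower and 12.3% higher. KCNMA1 and KCNMB1 encode the pore and a smooth muscle auxiliary subunit of the calcium-activated BK potassium channel. KCNMA1 gave 311 and 30 reads (9.57-fold lower, 6.57 to 14.4) and KCNMB1 gave 244 and 54 (4.17-fold lower, 3.09 to 5.71). PLN, for phospholamban, which holds back the calcium pump of the sarcoplasmic reticulum, gave 726 and 280 reads (2.39-fold lower, 2.08 to 2.76). MYLK, the myosin light chain kinase gene, had 916 and 413 reads, a 2.05-fold lower count (1.82 to 2.30). RHOA and ROCK1, whose products keep myosin light chain phosphorylated, had log2 folds of 0.67 and 0.62, while ROCK2 was at -0.09 (699 and 607 reads).

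**Figure D4:**
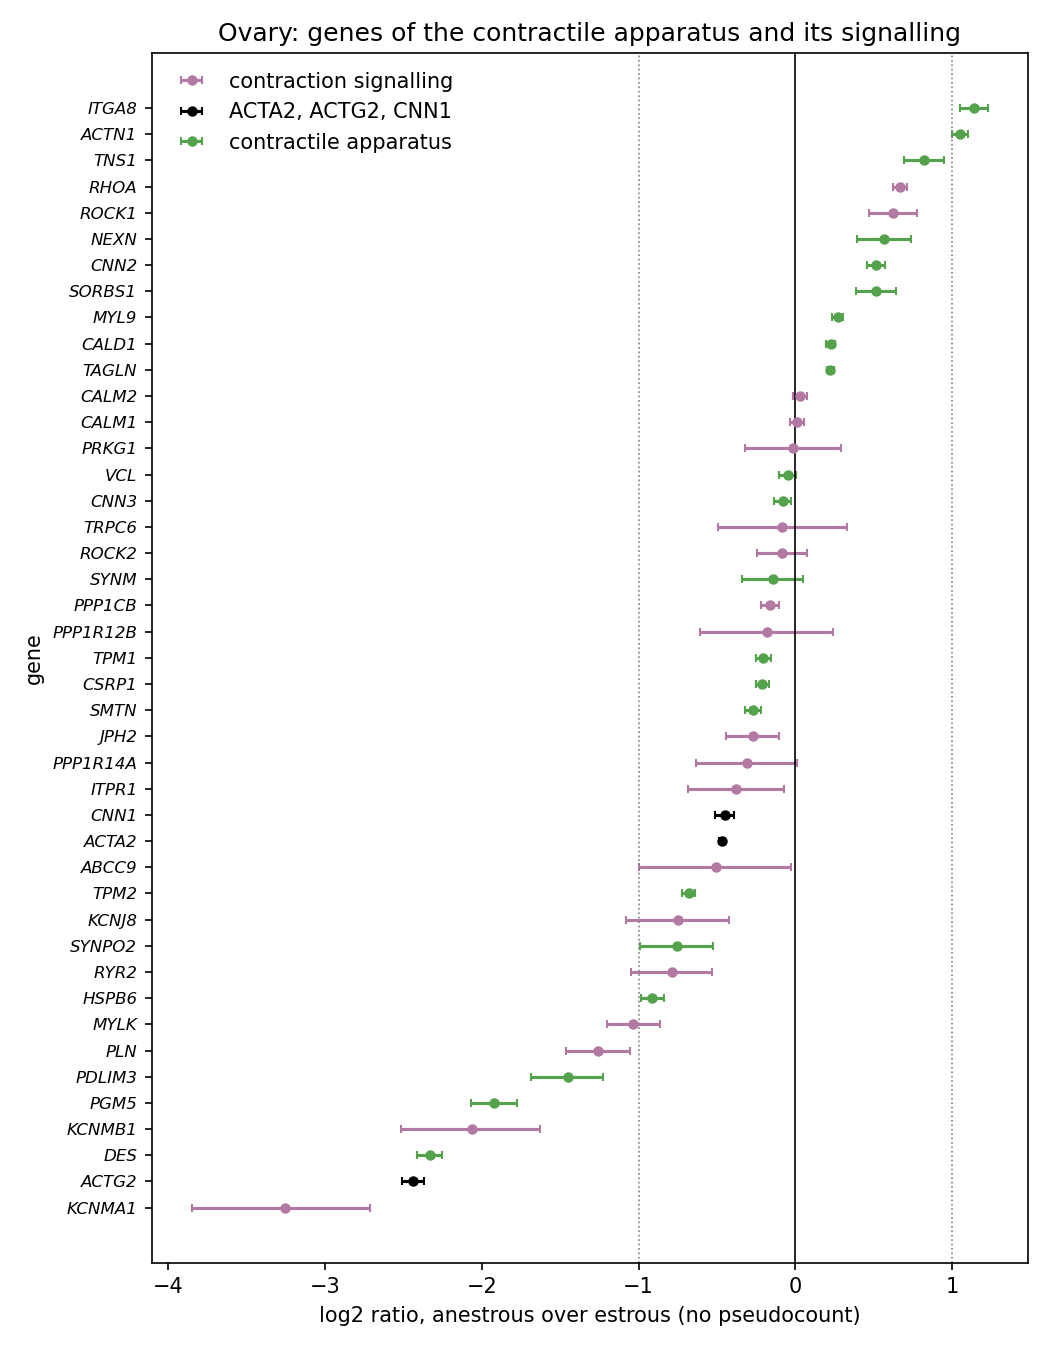
Log2 ratio of the anestrous to the estrous normalised count in the ovary for ACTA2, ACTG2 and CNN1 (black) and for genes over the floor of the contractile apparatus (green) and of contraction signalling (purple), with 95% counting intervals and dotted lines at 2-fold. KCNMA1, ACTG2, DES, KCNMB1 and PGM5 lie lowest, while TAGLN, CALD1 and MYL9 lie just above 0.

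The same lists in the other tissues gave few 2-fold differences. The background was 1.29% higher and 1.04% lower in the hypothalamus, and 1.2% and 1.9% in the pituitary. In the hypothalamus 2 of 20 contractile apparatus genes over the floor were at least 2-fold higher and none lower (median log2 fold 0.11). NEXN, for the actin filament protein nexilin, gave 77 and 682 reads (9.14-fold higher, 7.21 to 11.7), and SYNPO2, for synaptopodin-2, gave 122 and 417 (3.53-fold higher, 2.88 to 4.35). SMTN (smoothelin) and DES were at log2 folds of 0.85 and 0.77, and TAGLN at 0.28. In the pituitary none of 19 differed 2-fold (median 0.04, and -0.07 with equal totals). There DES gave 289 and 484 reads (1.77-fold higher, 1.53 to 2.06), SMTN 646 and 936 (1.54-fold higher, 1.39 to 1.70) and TAGLN 854 and 1227 (1.52-fold higher, 1.39 to 1.66), while SYNM, for the intermediate filament protein synemin, was 1.97-fold lower (1.69 to 2.30). DES and SMTN were thus higher in anestrus in hypothalamus and pituitary and lower in the ovary, the pattern of ACTA2. TPM2 had the same signs (log2 folds 0.54, 0.21 and -0.68 in hypothalamus, pituitary and ovary). The list as a whole did not share this pattern. TAGLN and MYL9 were above 0 in every tissue (0.22 and 0.27 in the ovary), and CALD1 was below 0 only in the pituitary (-0.21). In the ovary SMTN was 1.21-fold lower (1.17 to 1.25). These differences between tissues were not tested. No contraction signalling gene over the floor differed 2-fold in the hypothalamus (16 genes, median 0.12) or the pituitary (11 genes, median -0.17).

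Receptors that drive or relax smooth muscle were mixed. In the ovary, of 11 over the floor, 2 were higher by the rule of size and 3 were lower, beside a background of 12.3% and 7.95%. OXTR, the oxytocin receptor gene, gave 18 and 146 reads (8.79-fold higher, 5.37 to 15.2), and PTGFR, the receptor of prostaglandin F2-alpha, 701 and 2110 (3.26-fold higher, 2.99 to 3.56). AGTR1, an angiotensin II receptor gene, gave 642 and 240 reads (2.47-fold lower, 2.12 to 2.88), and EDNRA, an endothelin receptor gene, 1478 and 604 (2.26-fold lower, 2.05 to 2.49). AGTR1 was 2.59-fold higher in the hypothalamus (43 and 108 reads) and 2.47-fold lower in the pituitary (672 and 257 reads). OXTR had 12 and 14 reads in the hypothalamus and 0 and 1 in the pituitary.

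Among regulators of smooth muscle genes, SRF, the serum response factor that binds actin gene promoters, was within 2-fold in every tissue. It gave 509 and 524 reads in the hypothalamus, 481 and 458 in pituitary libraries and, in the ovary, 1303 and 1103 (ratio 0.917, 0.846 to 0.995). Its coactivator gene MYOCD had no row under its name and was not analysed here. In the ovary 2 of 16 regulators over the floor were at least 2-fold higher, TGFBR1 (1111 and 3684 reads) and TGFB1 (1153 and 2817). They encode a receptor and a ligand of the transforming growth factor beta pathway. Another 2 were at least 2-fold lower, PRDM6 (129 and 32) and GATA6 (4588 and 1815). The ovary background was 12.3% higher and 7.95% lower. In the pituitary 1 of 15 regulators over the floor was at least 2-fold lower, TGFB3 (169 and 47 reads), beside 1.9% of all genes. In the hypothalamus there was none.

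Summed markers of pericytes and endothelium were close between the ovary libraries in RPM. On that scale ACTA2 was 1.59-fold lower in the anestrous ovary, against 1.38-fold by normalised counts. Pericyte markers, of which 9 of 10 were in the tables, summed to 766 RPM in the estrous and 653 in the anestrous ovary, with 1 of 7 over the floor at least 2-fold higher (CSPG4, log2 fold 1.36) and 2 lower (MCAM, -1.80, and HIGD1B, -1.01). None of them was at 0 reads. Endothelial markers summed to 1129 and 1083, with 1 of 11 at least 2-fold lower (EMCN) and a median of 0.01. Fibroblast and matrix markers summed to 25866 and 19316 (2 of 9 at least 2-fold lower, 1 higher). Macrophage markers summed to 1254 and 1832, with 6 of 10 at least 2-fold higher. Granulosa cell markers were at least 2-fold lower in 7 of 10, and theca and luteal markers in 5 of 7, with the other 2 higher. PTGFR, 1 of those 2, is also counted among the contraction receptors above. Epithelial and oviduct markers summed to 81.0 and 37.2, with 3 of 4 over the floor at least 2-fold lower, among them OVGP1 (321 and 44 reads), and 1 higher, EPCAM (75 and 346 reads). These marker counts stand beside an ovary background of 12.3% higher and 7.95% lower over all genes over the floor. The part of these cell types in the ovary values of ACTA2, ACTG2 and CNN1 was not tested.

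Beside the higher ACTA2 values, pericyte markers summed to 284 and 259 RPM in the hypothalamus and 106 and 85.4 in the pituitary, lower in anestrus in both. MCAM alone was at 151 and 120 RPM of the hypothalamus sums. Of 7 pericyte markers over the floor there, 3 had a log2 fold above 0 and 4 below (median -0.06). In the pituitary 1 of 6 was above 0 and 5 were below (median -0.06). RGS5, a pericyte gene, had a log2 fold of 0.31 in the hypothalamus and -0.78 in the pituitary. Endothelial markers summed to 501 and 471 in the hypothalamus and 406 and 501 in the pituitary, where KDR was at 0.94. Choroid plexus and meninges markers in the hypothalamus summed to 233 and 111, led by TTR at 2299 and 856 reads. Astrocyte markers summed there to 18435 and 12926. Their part was not tested. ACTA2 reads were also set against those in the ovary library of the same state. In estrus they came to 0.874% in the hypothalamus and 0.766% in the pituitary. The ovary genes INHA, CYP17A1 and STAR were lower there, at 0.0263% to 0.113%. In anestrus ACTA2 came to 2.45% and 2.04%, within the range of those genes, 0.333% to 2.64%, where their ovary reads were fewer. The top of that range is STAR in the hypothalamus, and in the anestrous pituitary those genes reached at most 0.865%. ACTG2 came to 0.102% in the estrous hypothalamus, within the range of those genes, and to 0.00853% in the estrous pituitary, below it. In the anestrous libraries it came to 0.702% and 0.150%. CNN1 came to 5.01% and 8.05% in the hypothalamus, estrous and anestrous, above the range of those genes in both states. In the pituitary it came to 0.490% and 1.70%. Whether reads passed between libraries was not tested.

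**Figure D5:**
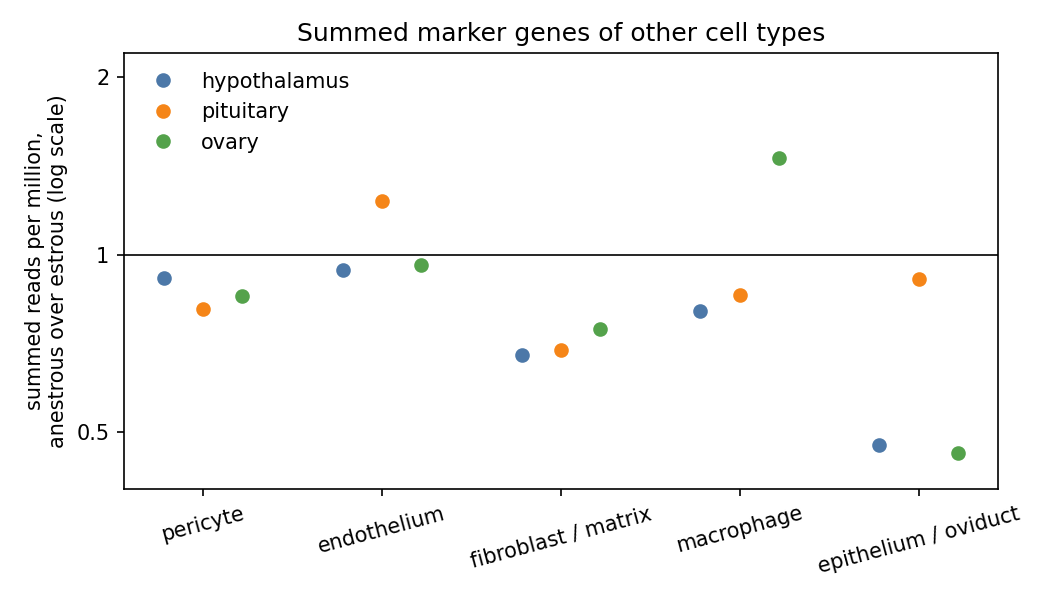
Summed RPM of marker genes of other cell types in the anestrous library over those in the estrous library, per tissue (log axis, 1 point per tissue). Pericyte and endothelial sums in the ovary stay near 1 (0.852 and 0.959), while the macrophage sum is at 1.46 and the epithelial and oviduct sum at 0.459. RPM makes library totals equal, which moves ovary log2 folds by -0.20 from those of normalised counts.

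Likeness of pattern was measured as Pearson's r of log2(RPM + 1) over the 6 libraries, which share tissue and depth within pairs. It is a description over 11061 named genes with a mean of at least 50 in at least 1 table. The 3 genes had r of 0.99 (ACTA2 and ACTG2), 0.94 (ACTA2 and CNN1) and 0.94 (ACTG2 and CNN1) with each other, values set by the gap between ovary and the other tissues. Nearest to ACTA2 were NBL1, MTPAP, ANXA2R, ADGRE1 and PPARG (r from 0.998 down to 0.996). Among those nearest to ACTG2 were ZNF596, CARM1, WDR86 and EDNRA, and nearest to CNN1 were MKX, RCC1, CHST15, MFGE8 and B4GALT2. EDNRA, with 95.4 and 36.7 RPM in the ovary and 2.47 to 4.30 elsewhere, is the 1 gene among these that is also in the lists of contraction genes. By the distance between log2 folds in the 3 tissues, the genes nearest to the mean of the 3 members (0.45, 1.08 and -1.12 in hypothalamus, pituitary and ovary) were ATP2B3, SOX13, SLITRK5, TMEM145 and PENK among 8392 genes over the floor in all tables. PENK, the proenkephalin gene, was at 0.22, 0.85 and -1.17. The mean itself took in values below the floor, ACTG2 in hypothalamus and pituitary and CNN1 in the pituitary. In the ovary it lay apart from every member (-0.47 for ACTA2, -2.44 for ACTG2 and -0.45 for CNN1). Genes near the mean are therefore not near any single member in all tissues.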

How the data were processed

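Trizol RNA of frozen tissue went into TruSeq libraries, per the labels' protocols. TopHat2 2.1.0 is named per the submitters' processing notes, and DESeq per the labels. The read counter, genome build, annotation and use of strand are not given in the sources used here. No coordinates are printed for that reason, and overlapping or near-identical genes are uncertain. The deposited signal of a library is its read count per gene over a size factor, and the p-value and adjusted p-value are the authors', per the file headers. They compare 2 libraries, not the states. Divided by the smallest value of their column, 100% of the values above 0 came out whole to within 0.01 read, which gave the reads back.

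Ratios are of normalised counts, anestrous over estrous, with exact conditional binomial (Clopper-Pearson) 95% intervals. Log2 folds use a pseudocount of 1, which understates differences of genes with few reads. Genes were counted as 2-fold different with a mean of at least 50 and a log2 fold of at least 1 in size. Symbols came from the tables (12762 rows) and then a table of Ensembl names (14252 in all), and rows sharing a symbol were summed. The members, 5 gene lists and 13 cell type lists were chosen with earlier results of these data known. Named genes were up to 4 per list and tissue with the largest absolute log2 fold, MYLK, TAGLN, MYL9, CALD1, DES, MYOCD, SRF and OXTR, the leading cell type markers, and the 5 genes most like each member. Of these, 1 gene, and the result of 1 cell type list, are not reported here. Other genes named were picked with their values in view. The alternatives tried were totals made equal, TMM scaling (trimming 30% of ratios, 5% of levels), a pseudocount of 5, floors of 0 and 200, and a limit of 0.05 on the deposited adjusted p. Added after the data were seen were totals without the 10 leading genes, a pathway column's gene list and a count test in edgeR 4.0.16 (quasi-likelihood, R 4.3.3) with tissue as a block. The counting rule, intervals and count test were tested on simulated data. For the rule and intervals the simulated reads had counting error alone. For the count test they had a fixed spread and changes shared by all tissues. These runs therefore do not cover differences between sows, PCR copies or changes that differ by tissue. Python 3.11.15 and scipy 1.17.1 were used.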

Additional observations from a re-analysis of the deposited data

Results flagged for a closer look

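ACTA2 differed in opposite directions between tissues, and the counting interval of each ratio lay wholly on its side of 1. Its log2 fold was 0.94 in the hypothalamus (1 of 1 anestrous libraries higher) and -0.47 in the ovary. It was 0.91 in the pituitary against the same -0.47 in the ovary. CNN1 had a log2 fold of 1.27 in the pituitary, below the floor, and -0.45 in the ovary. With 1 library per tissue and state these differences between tissues were not tested.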

How the results depend on the processing

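All 27 log2 folds of ACTA2, ACTG2 and CNN1 under equal totals, a trimmed mean or a pseudocount of 5 kept their sign. Of these folds and the medians of the gene lists, 78 values stayed within the counting interval or, for medians, within 0.1 with the same sign, also under the other floors, and 24 did not. A pseudocount cannot change the sign of a fold, and the trimmed mean moved log2 folds by at most 0.005 in size. The kept signs are thus no check under those settings. Equal totals moved the log2 folds by -0.09 in hypothalamus, -0.12 in pituitary and -0.20 in ovary. In the ovary ACTA2, ACTG2 and CNN1 were then at -0.67, -2.64 and -0.65, outside their counting intervals. The median of the 3 genes there was -0.67, by construction of that scaling. Counts of genes at least 2-fold higher and lower stayed within 1.5 times under equal totals, though the split turned in hypothalamus and ovary, and depended on the floor. With no floor they were 845 and 877 (hypothalamus), 965 and 1139 (pituitary), 2534 and 2223 (ovary). With a floor of 200 they were 75 and 29, 48 and 84, and 880 and 501. With a deposited adjusted p of up to 0.05 also required they were 67 and 31, 36 and 50, and 92 and 15. These settings change the genes that can be counted. The estrous ovary to pituitary ratio of ACTA2 was 105 with totals that leave out the 10 leading genes. Rows without a trailing number gave no value, as every member has 1 row with a number. The count test over tissues in edgeR's quasi-likelihood test, which treats tissues as replicates of a state, called 0 of 14444 genes at an adjusted p of 0.05 (542 at an unadjusted p under 0.05), with ACTG2 at a log2 fold of -1.43 (adjusted p 0.986), lower in 1 of 3 tissues. That fit pairs the states by tissue. Within a tissue no paired analysis was possible because each state has 1 library. Depth limits ACTG2 outside the ovary, where it had 1 to 14 reads.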

Other observations

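The tables assign 91 genes to the vascular smooth muscle contraction pathway, ACTA2 and ACTG2 among them, a list examined after the data were seen. Of the other 89, 62 were over the floor in the ovary (median log2 fold -0.05). By the rule of size 9 of the 62 were higher and 14 lower, beside 12.3% and 7.95% of all ovary genes over the floor. The 2-fold lower genes included the adenylyl cyclase genes ADCY5 (612 and 143 reads, 3.95-fold), ADCY3 (3752 and 1154, 3.00-fold) and ADCY2 (382 and 148, 2.38-fold), which make the relaxing messenger cyclic AMP, and EDN3, an endothelin gene (684 and 186, 3.39-fold). The 2-fold higher genes included EDN1, the endothelin-1 precursor gene (188 and 642 reads, log2 fold 1.88), the phospholipase gene PLA2G3 (62 and 1156 reads, log2 fold 4.31) and the protein kinase C genes PRKCD (768 and 1890), PRKCB (50 and 139) and PRKCQ (42 and 95). In the hypothalamus 4 of 66 were at least 2-fold higher and 1 lower, beside a background of 1.29% and 1.04%. In the pituitary none of 53 was higher and 3 were lower, beside 1.2% and 1.9%.

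Red blood cell markers, of which 5 of 8 were in the tables, summed to 58.2 RPM in the estrous and 18.1 in the anestrous ovary, to 69.9 and 83.6 in the pituitary and to 31.8 and 22.4 in the hypothalamus. HBB, a globin gene, had 801 and 254 reads in the ovary libraries.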
